A study of Mus musculus with 3 samples.

Results

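C1q-positive Cx3cr1 Ccr2 macrophages are liver cells that make the complement protein C1q and carry a monocyte chemokine receptor, yet lack the defining transcripts of Kupffer cells (KCs). There were 232 of them among the 52335 single cells of 2 BD Rhapsody whole-transcriptome libraries of mouse liver, of which 98 came from the NCD library and 134 from the HFHC pool. The NCD library holds non-parenchymal cells (NPCs) of wild-type (WT) C57BL/6J mice on a normal chow diet (NCD). The HFHC pool holds NPCs of WT mice and of mice with a whole-body deletion of Chi3l1 (Chi3l1-/-), both on a high-fat, high-cholesterol (HFHC) diet, with no genotype known for any cell. The title of the first library reads MCD and its file header names a run APAP0h, while the study's methods describe NCD cells. With the limits of the cell filter themselves left out it kept 23312 cells, which is how it was matched to the NCD. The HFHC pool kept 19599 cells by the same limits, more than the cells that the study retained for its diet and genotypes, so the match rests on the first library alone. The labels call the captured cells parenchymal, whereas the study's methods describe NPCs taken after collagenase perfusion and a density gradient. How many animals each library pooled, and their age, are not given in the sources used here. Male mice served in most of the study's experiments, and its list of resources gives the Chi3l1-/- strain as male, with no sex stated for these libraries. Each diet is a single library, and Chi3l1-/- cells are in the HFHC pool alone, so the effect of diet cannot be told apart from those of genotype, capture and sequencing. For this reason no test between diets was made, and every interval below covers counting error only.

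Macrophages of the liver come from more than one source. KCs are resident cells that settle in the liver before birth, line the sinusoids and renew themselves locally, and they carry Clec4f, Vsig4 and Timd4. When KCs are lost, for instance during steatotic liver disease, monocytes enter through Ccr2, the receptor of the chemokine Ccl2, lose Ly6c2 and become monocyte-derived macrophages (MoMFs), some of which hold Cx3cr1, the receptor of fractalkine. A part of such cells in fat-laden tissue, often called lipid-associated macrophages, carries Trem2, a receptor for lipids and lipoproteins, together with Gpnmb, Cd9, Fabp5 and lysosomal genes.

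The cells were chosen by their molecule counts (UMIs, unique transcripts after error correction). A cell needed 200 to 4000 genes, at most 25% mitochondrial UMIs, at least 5 UMIs of C1qa, C1qb and C1qc together and at least 2 of Cx3cr1 and Ccr2 together. It could carry at most 4 UMIs of Clec4f, Vsig4 and Timd4 together, at most 1 of the classical monocyte gene Ly6c2 and none of Cd209a, Cd3e, Cd79a or Siglech, which mark dendritic, T, B and plasmacytoid dendritic cells. Levels of these genes therefore describe the choice and support nothing else. The median sum of C1q UMIs was 26 in NCD cells and 39 in pool cells, below the 79 and 132 of the KCs (at least 5 C1q UMIs and 10 of Clec4f, Vsig4 and Timd4). Cx3cr1 alone was seen in 27 of 98 and 25 of 134 cells, Ccr2 alone in 21 and 22, and both receptors in 50 and 87. Their median UMIs were 2.5 and 4 for Cx3cr1, and 3 and 7.5 for Ccr2. At the edge of the rule, 0 NCD cells and 1 pool cell held exactly 5 C1q UMIs, and 5 and 5 otherwise fitting cells held 4. The KC limit of 4 was reached by 1 NCD cell and 0 pool cells, against 5 and 0 otherwise fitting cells at a sum of 5, and 71 and 106 cells held none of these UMIs. A receptor sum of exactly 2 was held by 13 NCD cells and 3 pool cells, against 7 and 12 otherwise fitting cells with 1 receptor UMI. The limit of 200 to 4000 genes alone shut out 0 NCD cells and 22 pool cells.

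Depth differed between the libraries, and so did the share of B cells with C1q UMIs. The C1q-positive macrophages had a median of 3361.5 UMIs (599 to 11141) and 1571 genes in the NCD library, and 7789.5 UMIs (1884 to 17739) and 2594.5 genes in the pool. Their medians of mitochondrial UMIs were 5.79% and 6.45%. B cells (at least 2 UMIs of Cd79a), which do not make C1q, reached 5 C1q UMIs in 48 of 1397 cells of the NCD library (3.44%, 95% exact binomial interval 2.54 to 4.53) and in 8 of 891 cells of the pool (0.898%, 0.388 to 1.76), with medians of 1396 and 2721 UMIs per cell. The libraries shared 507 cell indexes among kept cells, 0 of them carried by these macrophages. Scrublet, a doublet caller, marked 7 of the 98 and 2 of the 134 cells, and 8.18% and 1.93% of all kept cells. No doublets were removed. Leaving out the marked cells is among the alternatives counted in the closing section, but its values are not listed there.

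The macrophages chosen by the rule were a larger share of the pool than of the NCD library, by a margin that narrowed without cells of mixed transcripts. They made up 0.420% of 23346 kept cells with the NCD (0.341 to 0.511) and 0.683% of 19625 kept cells in the pool (0.572 to 0.808). Against KCs the distance was wider, with 27.0 KCs for each such macrophage on the NCD side and 2.54 on the pool side (2644 and 341 KCs). Of all cells gated as KCs, monocytes or C1q-positive macrophages, they were 3.29% (2.68 to 3.99) and 14.9% (12.6 to 17.3). Cells that also held at least 2 UMIs of dendritic, endothelial or neutrophil genes or of Alb bear on this share. Without them 67 cells (0.287%) and 65 cells (0.331%) were left, so the shares then lay close. The rule also counts UMIs, and the pool macrophages were deeper, with a median of 7789.5 UMIs against 3361.5. The part of depth in the share was not tested beyond the alternatives given.

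Cells with transcripts of a second cell type were present in both libraries. Dendritic genes (Flt3, Zbtb46, Xcr1 and Clec9a) gave at least 2 UMIs in 12 of 98 and 19 of 134 cells, endothelial genes (Stab2, Clec4g, Ptprb, Kdr and Gpr182) in 9 and 27, and the hepatocyte gene Alb in 12 and 47. Genes of non-classical monocytes (Ace, Treml4, Cd300e and Spn) did so in 14 and 57 cells (42.5% of the latter). The neutrophil genes S100a8 and S100a9 did so in 7 NCD cells and 1 pool cell. A single cell held 149 endothelial UMIs in the NCD library, 55.4% of all of them, and 1 cell of the pool held 144 (31.0%). Summed over the cells, the 8 genes listed for type 1 dendritic cells came to 1949 CPM (UMIs scaled to a common total) in NCD cells and 927 CPM in pool cells, and the 8 neutrophil genes to 936 and 88.9. The 7 type 2 dendritic cell genes outside the rule came to 656 and 85.3 CPM. The T and NK cell genes came to 293 and 45.8 CPM, the endothelial genes to 1403 and 745, and the hepatocyte genes to 1138 and 966. Of the 4 basophil genes all were at 0. The part of these cells and transcripts in the comparisons below was not tested beyond the alternatives given.

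The macrophage label was checked against marker genes. All 18 genes of the macrophage core list, among them Csf1r, the receptor that macrophages need to survive, Adgre1 (F4/80), Cd68 and Mertk, were detected, with a summed level of 26878 CPM in the NCD library and 26512 CPM in the pool. KCs came to 30163 and 25698 CPM and Ly6c2 monocytes to 45447 and 28524 CPM, against 4549.7 and 1403 CPM in B cells, so the list sets the cells apart from lymphocytes but not from KCs or monocytes. The KC gene Marco, a scavenger receptor, had 1 UMI in the NCD cells and was at 0 in the pool cells, a level of at most 2.69 CPM at 3 counts. The 16 KC genes outside the rule summed to 1672 and 3628 CPM, against 19005 and 17920.2 CPM in KCs of the same libraries. B cells came to 1748 and 392 CPM. Of the 5 genes given as markers of these cells, Cx3cr1 was part of the rule, and the other four did not behave alike, as follows.

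Ms4a7, a membrane protein of the tetraspan family found on monocyte-derived macrophages, was higher in these cells than in every other class of both libraries. It stood at 280 CPM in the NCD library and 403 CPM in the pool, while KCs held 99.1 and 121 CPM. Ly6c2 monocytes (at least 5 Ly6c2 UMIs, a Ccr2 UMI and at most 4 C1q UMIs) held 11.9 and 17.6 CPM. Trem2 followed the same order, with 219 and 339.5 CPM in the macrophages, 70.9 and 163 CPM in KCs and 49.5 and 44.7 CPM in monocytes. Thinned to 2000 UMIs, which removes the difference in depth and keeps 74 and 133 cells, Trem2 was found in 37.8% (26.8 to 49.9) and 35.3% (27.3 to 44.1) of the macrophages. Ms4a7 was found in 31.1% (20.8 to 42.9) and 38.3% (30.1 to 47.2). Only 3.21% and 0.267% of B cells held Trem2 at this depth, and 4.42% and 0.400% held Ms4a7. Gpnmb, a glycoprotein of the lysosome and cell surface, was at 30.4 CPM in the NCD library, close to the 25.7 CPM of its Ly6c2 monocytes, and at 828 CPM in the pool. Mmp12, the macrophage elastase, was low, with 12 UMIs in 5 cells and 77 UMIs in 17 cells, and in the pool its 69.2 CPM was below the 123 CPM of KCs.

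**Figure D1:**
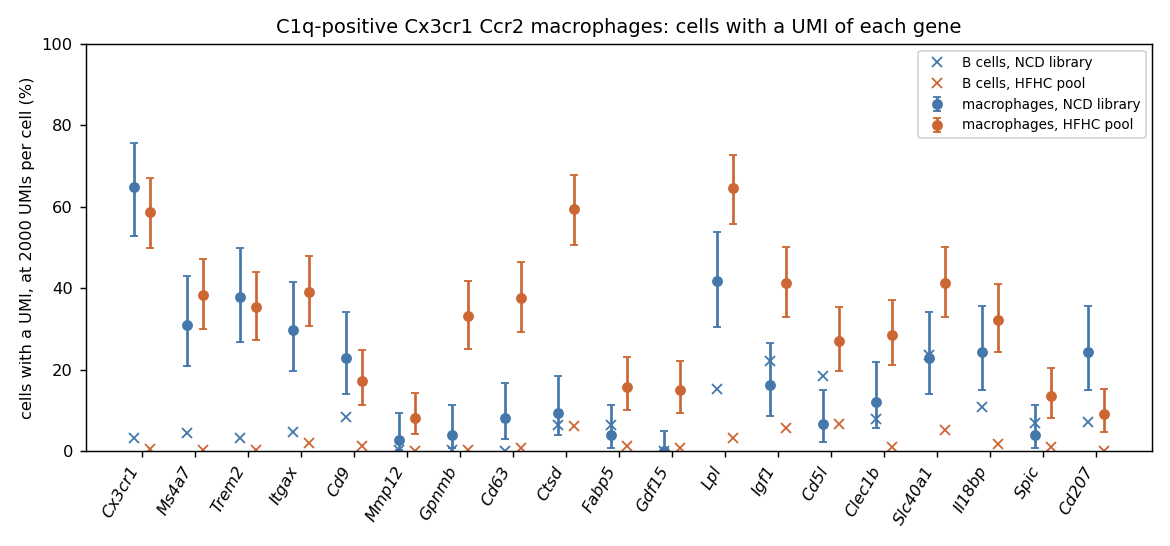
Percentage of C1q-positive macrophages (circles, with 95% exact binomial intervals) and of B cells (crosses) with at least 1 UMI of each gene after every cell was thinned to 2000 UMIs, in the NCD library (blue) and the HFHC pool (orange). Trem2 and Ms4a7 lie at like heights in both libraries, Gpnmb is at 4.05% and 33.1%, and Cd5l, Slc40a1 and Igf1 lie at or below the B cells in the NCD library but above them in the pool.

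Within a library, capture and sequencing are shared, so the macrophages were next set against KCs and Ly6c2 monocytes side by side. Depth per cell was not shared, the median being 5006.5 UMIs in KCs and 3361.5 in Ly6c2 monocytes of the NCD library, and 10594 and 6064.5 in those of the pool. Few genes stood apart from both classes in both libraries. Of 1519 genes outside the gates with enough UMIs, 11 (0.724%) were at least 2-fold higher than in both classes in both libraries, and 0 (0%) were at least 2-fold lower. The genes that led were Ms4a7, Trem2, Cd93, Itgax, Tgfbr1 and Clec4a2, together with endothelial genes and Retnla.

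Cd93, a receptor of the C-type lectin family, was 5.20 (log2) above KCs and 1.38 above Ly6c2 monocytes in the NCD library, and 5.66 and 2.08 in the pool. Itgax, the integrin CD11c, was 5.15 and 2.69 above them in the NCD library and 3.29 and 1.29 in the pool, but only 0.42 and 0.21 above the non-classical monocytes (cells with Cx3cr1 and at least 2 UMIs of Ace, Treml4, Cd300e and Spn). Ms4a7 was 1.51 and 4.35 above KCs and monocytes in the NCD library and 1.74 and 4.48 in the pool. These genes thus set the macrophages apart from KCs by one amount and from monocytes by another. Tgfbr1, a receptor of TGF-beta, was 2.24 and 3.12 above KCs and monocytes in the NCD library and 1.40 and 2.10 in the pool. Stab1, a scavenger receptor also found in liver endothelium, just missed the 2-fold mark, its smallest log2 ratio being 0.98 (over the KCs of the pool). The endothelial genes Kdr, Igfbp7, Aqp1 and Ehd3 were also among the 12 highest, and 1 cell held 57.7%, 48.0%, 32.9% and 32.3% of their UMIs in the NCD library. Retnla led by ratio through single cells, as 1 cell held all 434 UMIs in the NCD library and another 99.6% of 1072 UMIs in the pool.

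The genes with the lowest ratios differed less. Ifitm3, an interferon-induced protein that blocks virus entry, stood at log2 ratios of -0.67 and -0.78 against the KCs of the NCD library and the pool, and at -1.77 and -1.58 against Ly6c2 monocytes. Ifitm6 was lower still against monocytes, at -3.87 and -3.70, and Mgst1, a glutathione transferase, at -3.20 and -2.28. Xdh, the enzyme that makes uric acid, was at -1.32 in both libraries against KCs. Ifitm2, Klf2, Ptpn1, Atp1b3, Stom, Marcksl1 and Adgre5 were also among the 12 lowest.

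Gene lists set the macrophages apart from KCs and monocytes in different ways. MHC class II genes, which present peptides to helper T cells, had a median log2 ratio of 1.89 over KCs in the NCD library, with 7 of 9 measured genes at least 2-fold higher, and of 0.63 in the pool, with 1 of 8. Over Ly6c2 monocytes the median was 2.32 (7 of 8 genes) in the NCD library and 1.46 (5 of 8) in the pool. Of all genes tested, 9.76% and 3.47% were at least 2-fold over KCs in the NCD library and the pool, and 7.14% and 5.96% over Ly6c2 monocytes, with medians between -0.15 and 0.12. KC identity genes outside the rule had medians of -3.35 against KCs (19 measured) and 2.45 against monocytes (5 measured) with the NCD. In the pool these were -2.19 (18 measured) and 3.94 (10 measured). Monocytes held few of these transcripts, so a gene passed the UMI limit mainly through the macrophages, and the medians over monocytes lean upward. Lipid-associated macrophage genes went both ways against KCs, with 5 of 18 at least 2-fold higher and 5 lower in the NCD library (median -0.58), and 6 of 20 higher and 1 lower in the pool (-0.19). Against monocytes 5 of 10 were higher and 1 lower in the NCD library (1.12), and 15 of 19 higher and 1 lower in the pool (2.07). The share of all genes at least 2-fold lower was 7.94% and 5.47% against KCs and 10.4% and 7.93% against monocytes. In these comparisons too the 100-UMI limit passed more genes through the deeper set, most of all the NCD KCs with 14392186 UMIs. By a mean CPM of at least 100 over both sets, 6.14% of 1725 genes were at least 2-fold higher than in the NCD KCs and 8.46% lower, with 6 of 8 MHC class II genes higher, and 2 of 11 lipid-associated genes higher and 4 lower. Against the pool KCs 5 of 18 lipid-associated genes were then higher and 1 lower, beside 3.08% and 6.16% of 1687 genes. Lysosomal genes had medians of -0.71 and 0.60 against KCs and monocytes in the NCD library, and of -0.34 and 0.91 in the pool. The rule bears on the KC list, since it limited other genes of KCs in the same cells.

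**Figure D2:**
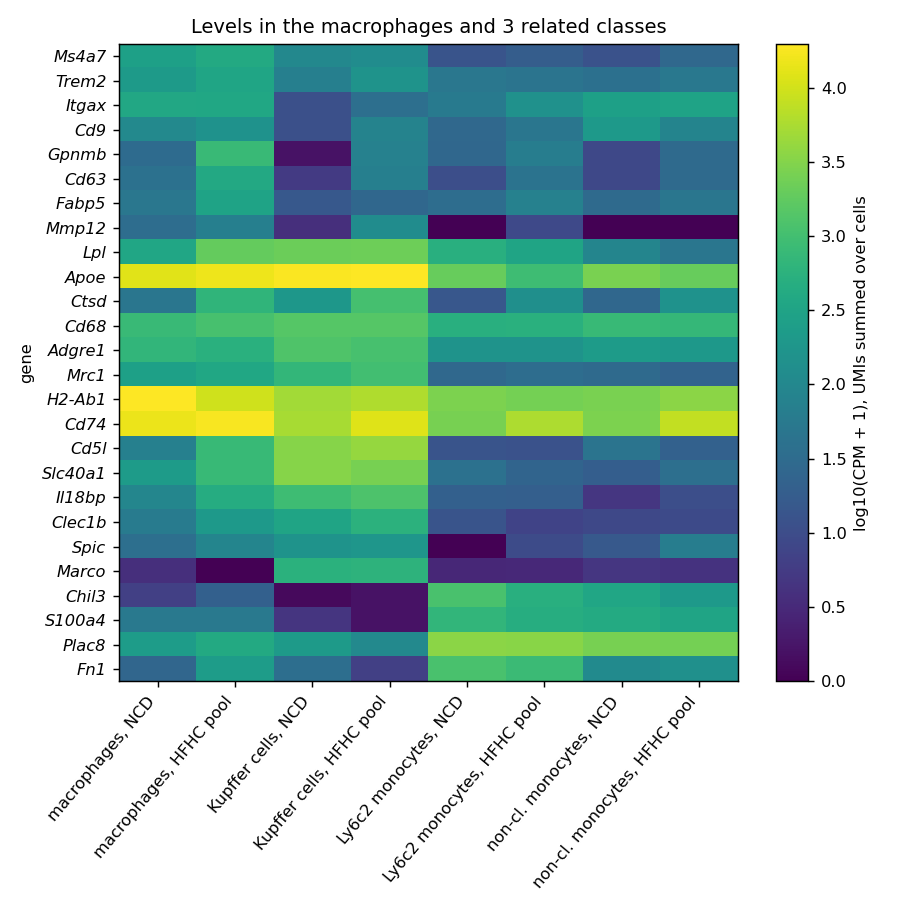
Levels of 26 genes, as log10(CPM + 1) from UMIs summed over cells, in the C1q-positive macrophages, KCs, Ly6c2 monocytes and non-classical monocytes of each library. Ms4a7 and Trem2 are brightest in the 2 macrophage columns, Cd5l and Slc40a1 are bright in KCs and are brighter in the pool column than in the NCD column of the macrophages, and Marco is at 0 in the macrophages of the pool.

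The comparison of the pool with the NCD library sets the macrophages of WT and Chi3l1-/- mice on the HFHC diet beside those of WT mice on chow, so that diet and genotype cannot be told apart. Lists of lipid-associated, lipid handling and KC identity genes held several genes at least 2-fold higher in the pool, the lysosome and MHC class II lists a few genes past 2-fold, and the macrophage core none. Of 2575 genes outside the rule whose UMIs in the 2 sets of cells came to 100 or more, 150 were at least 2-fold higher in the pool (5.83%) and 96 at least 2-fold lower (3.73%), beside a median log2 ratio of 0.03. The pool cells held more UMIs in all (1113395 against 361304), so a gene could pass this limit through a lower CPM in the pool than in the NCD library, and counts over measured genes lean upward. With a mean CPM of at least 100 over both libraries asked instead, which treats them alike, 84 of 1706 genes were higher (4.92%) and 79 lower (4.63%). Ratios are of CPM with 1 UMI added. T cells were cells with at least 2 UMIs of Cd3e. A list is read against those percentages, and the same ratios in KCs, monocytes, B cells and T cells stand beside it where they move with it. Each class had its own measured genes, so the list medians of different classes can rest on different genes.

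Of 24 lipid-associated macrophage genes 19 were measured, 9 were at least 2-fold higher in the pool, 0 were lower, and the median log2 ratio was 0.92. Only 7 of the 19 would have passed on NCD UMIs alone, and by mean CPM 18 were measured, with 8 higher, 0 lower and a median of 0.86. KCs had nearly the same median for this list (0.88), Ly6c2 monocytes a lower one (0.35). Gpnmb led all genes with at least 10 UMIs in each library, with 11 UMIs in 6 of 98 cells of the NCD library and 922 UMIs in 65 of 134 cells of the pool, a log2 ratio of 4.64 (95% counting interval 3.92 to 5.77). After thinning it was found in 4.05% of cells (0.844 to 11.4) and 33.1% (25.2 to 41.8), so the intervals did not overlap. T cells held it in 4.08% and 1.31% of thinned cells and B cells in 0.402% and 0.267%, so the NCD value of the macrophages did not exceed that of T cells. Its log2 ratio was 6.79 in KCs, which held 0.625 and 76.5 CPM, 1.23 in Ly6c2 monocytes and -1.05 in T cells. The level in the pool was thus more than in any other class shown.

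Ctsd, the lysosomal protease cathepsin D, had 17 UMIs in the NCD cells and 720 in the pool, a ratio of 3.70 (3.09 to 4.57), and was found in 9.46% and 59.4% of thinned cells. It was higher in the pool in every class compared, by 2.54 in KCs, 3.12 in Ly6c2 monocytes, 0.996 in B cells and 1.93 in T cells. Cd63, a tetraspanin of late endosomes, had 14 and 438 UMIs (3.25, 2.58 to 4.23), and 3.98 was its ratio in KCs. Fabp5, a carrier of fatty acids, had 18 and 344 UMIs (2.56, 1.95 to 3.40), with ratios of 0.88 in KCs and 1.13 in monocytes. Gdf15, a stress-induced hormone of the TGF-beta family, had a UMI in 0 of 74 thinned NCD cells, which at 3 counts allows a share of cells with a UMI of up to 4.05%, and in 15.04% of thinned pool cells (9.43 to 22.3). Pld3, an exonuclease of the lysosome, had 6 and 260 UMIs (3.60, 2.67 to 5.27), with ratios of 2.79 in KCs, 3.34 in monocytes, 2.03 in B cells and 2.16 in T cells. These genes were scarce in the NCD cells and present in many pool cells.

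Other genes known from lipid-associated macrophages differed little. Trem2 had a log2 ratio of 0.62 (0.28 to 1.003) and Cd9, a tetraspanin, 0.53 (0.04 to 1.11), and after thinning the shares of cells with Trem2, Cd9 (23.0% and 17.3%) and Itgax (29.7% and 39.1%) had overlapping intervals. Itgax had a ratio of -0.04 (-0.31 to 0.27). Apoe, an apolipoprotein, had 4501 and 17190 UMIs and a ratio of 0.31 (0.26 to 0.36). Spp1 (osteopontin) had 1 and 36 UMIs and was not measured by the 100-UMI limit.

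Genes of lipid uptake, storage and efflux overlapped this list. Of 25 genes 18 were measured, 8 were at least 2-fold higher and 0 lower, with a median of 0.95 against 0.36 in KCs and 0.26 in Ly6c2 monocytes. Of the 8 higher genes, 4 (Fabp5, Lipa, Lpl and Plin2) are also among the lipid-associated genes counted above, and the 12 measured genes that are in the lipid handling list alone had a median of 0.85. By mean CPM 15 genes were measured, with 7 higher and 0 lower. Lpl, the lipase that releases fatty acids from lipoproteins, had 123 UMIs in 36 NCD cells and 2150 UMIs in 97 pool cells, a ratio of 2.49 (2.24 to 2.78), and 41.9% and 64.7% of thinned cells held it. Its level in KCs hardly differed between the libraries (2097 and 2249 CPM), and the pool macrophages reached 1931 CPM. Abca1, which exports cholesterol, was at 1.77 (1.35 to 2.27), the lipoprotein receptor Lrp1 at 1.498 (1.12 to 1.95), beside 1.19 and 1.07 in Ly6c2 monocytes, and Nr1h3, the sterol sensor LXR-alpha, at 1.29 (0.61 to 2.22). Plin2, the coat of lipid droplets, was at 1.61 (1.07 to 2.32) and 1.18 in KCs, Apoc1 at 1.35 and the lysosomal lipase Lipa at 1.20 (0.98 to 1.44). Of 16 genes of cholesterol synthesis 1 was measured, Srebf2, at -0.98 (-1.55 to -0.38). On thinned cells the medians of the lipid-associated and lipid handling lists were 0.53 and 0.54, with 10 genes of the former measured.

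Of 14 iron genes 9 were measured, 4 were at least 2-fold higher, 0 lower and 5 within 2-fold, with a median of 0.60 (KCs -0.11). Only 3 of the 9 would have passed on NCD UMIs alone, and by mean CPM 3 of 7 were higher. Ftl1, the ferritin light chain that stores iron, had 479 and 6388 UMIs (2.11, 1.98 to 2.25), and was also higher in the pool's KCs (1.20), B cells (1.23) and T cells (1.20). Ncoa4, which takes ferritin to the lysosome, had 13 and 203 UMIs (2.24, 1.53 to 3.28), and B cells and T cells were near 0 (-0.29 and 0.08). Of 12 measured antioxidant genes 1 passed 2-fold, Gpx4, which repairs lipid peroxides, with 2 and 112 UMIs, and Gpx4 was likewise higher in KCs (2.35), B cells (2.59) and T cells (2.89). By mean CPM 9 antioxidant genes were measured and 0 passed 2-fold.

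The lysosome list held 31 measured genes of 37, with 5 at least 2-fold higher (Ctsd, Cd63, Pld3, Hexa and Lipa), 1 lower and a median of 0.40, against 0.22 in KCs and 0.06 in Ly6c2 monocytes. Of these 5, all but Hexa are also among the lipid-associated genes counted above. Thus a small number of its genes were far higher and most differed little. Lysosomal genes are known as targets of TFEB and related factors, which bind the palindrome CACGTG, an E-box. This motif was searched in the 250 bases before the start of each gene in RefSeq (build GRCm38.p6), where a palindrome reads the same on both strands. It was found for 6 of 23 measured lysosomal genes with a sequence (26.1%) and 3 of 14 lipid-associated genes (21.4%), for 0 of 8 KC identity genes, for 231 of 2072 genes tested (11.1%) and for 1854 of 27025 genes in all (6.86%). Ctsd and Ctsl are counted among both the lysosomal and the lipid-associated genes with the motif, so these shares are not separate results. A match describes the sequence and is not a site of binding. The stretches of 30 bases around the motif, in capitals, are shown for genes that were far higher in the pool (Ctsd and Gdf15) and for lysosomal genes that were only slightly higher, by 0.60 (Ctsa), 0.62 (Lamp1) and 0.55 (Lgmn) on the log2 scale.
Ctsd, chr7:142388048-142388077, minus strand: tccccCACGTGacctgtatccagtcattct
Gdf15, chr8:70632161-70632190, minus strand: cacagggcagggCACGTGtgagcatccagt
Ctsa, chr2:164833743-164833772, plus strand: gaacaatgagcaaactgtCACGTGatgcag
Lamp1, chr8:13159088-13159117, plus strand: agggcaagatatCACGTGgtccagcgccca
Lgmn, chr12:102439124-102439153, minus strand: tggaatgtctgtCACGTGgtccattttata
The motif begins 12 bases before the start of Ctsa, 49 before Lgmn, 61 before Lamp1, 83 before Gdf15 and 245 before Ctsd.

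**Figure D3:**
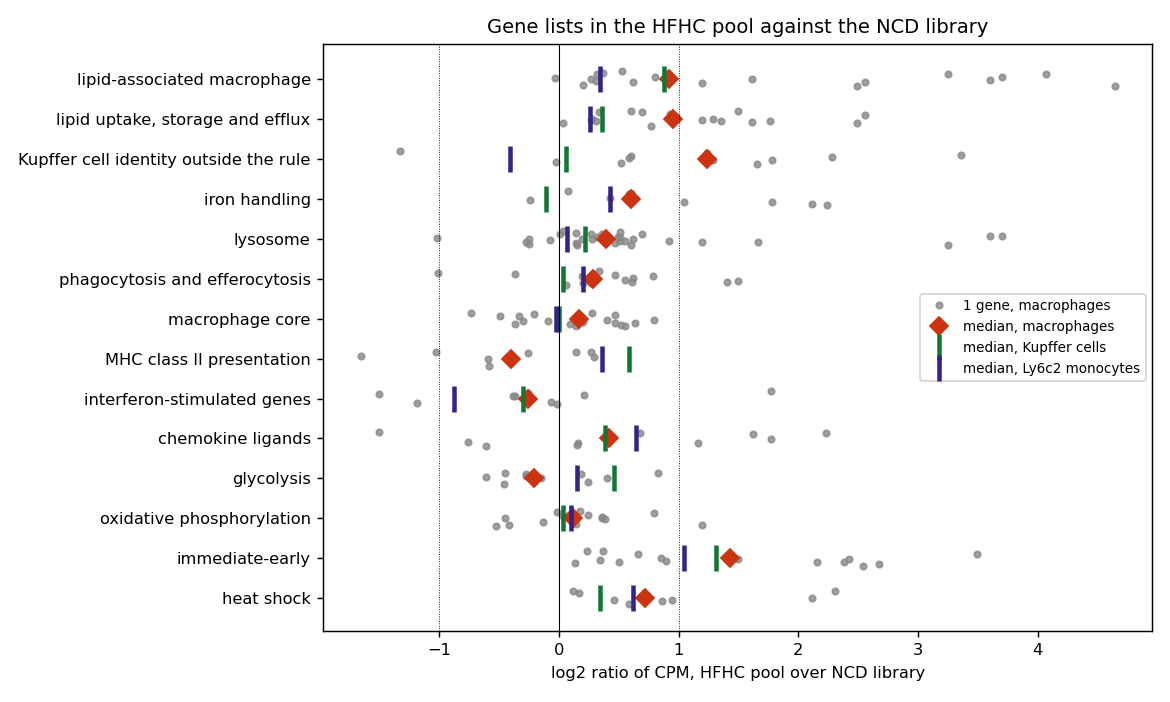
Log2 ratio of CPM, HFHC pool over NCD library, for each measured gene of 14 lists in the C1q-positive macrophages (grey circles), with the median of the list in the macrophages (red diamonds), KCs (green bars) and Ly6c2 monocytes (blue bars); dotted lines mark 2-fold. KC identity genes have a median of 1.24 in the macrophages (11 measured genes) and 0.06 in KCs (19 measured genes), and MHC class II genes -0.40 and 0.59.

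Transcripts of KC identity outside the rule were in part higher in the pool. Of 19 such genes 11 were measured, 6 at least 2-fold higher and 1 lower, with a median of 1.24. In KCs all 19 were measured, with a median of 0.06, so the 2 medians cover different genes. Only 3 of the 11 would have passed on NCD UMIs alone. By mean CPM 8 were measured, with 4 higher, 1 lower and a median of 1.12. Folr2, the folate receptor beta, passed neither limit and was lower in the pool, with 35 UMIs in 7 NCD cells (96.9 CPM), 19 of them in 1 cell, and 31 UMIs in 13 pool cells (27.8 CPM). Cd5l, a secreted scavenger receptor that marks KCs, had 26 UMIs in 12 NCD cells and 854 UMIs in 57 pool cells (3.36, 2.85 to 4.04). Slc40a1, the iron exporter ferroportin, had 81 and 869 UMIs (1.78, 1.47 to 2.15), Il18bp, a decoy that binds interleukin-18, 33 and 507 (2.28, 1.81 to 2.87), and Clec1b, the podoplanin receptor CLEC-2, 22 and 222 (1.65, 1.08 to 2.41). Spic, the transcription factor of iron-recycling macrophages, was at 1.24 (0.50 to 2.29). Each of these 5 genes was thus higher in the pool. Cd207 (langerin) was lower at -1.32 (-1.71 to -0.93), with a UMI in 26 NCD cells and 12 pool cells, and 1 pool cell held 40.9% of its UMIs. Cd207 was lower in the pool's KCs as well, at -1.02.

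The same genes were read in B and T cells for comparison, with 249 NCD and 750 pool B cells and 1275 and 2133 T cells deep enough to be thinned. Whether B or T cells express any of them was not tested. In the NCD library Cd5l was found in 6.76% of macrophages (2.23 to 15.1), 18.5% of B cells and 9.33% of T cells. It was thus not above either class. The classes are unlike here, as the rule capped Clec4f, Vsig4 and Timd4 in the macrophages but not in B and T cells. The thinned NCD B cells are also the deepest 249 of 1397. At full depth Cd5l was in 7.37% of all NCD B cells and 12.2% of the macrophages. Slc40a1 was found in 23.0% of macrophages (13.99 to 34.2), 23.7% of B cells and 11.1% of T cells, and Spic in 4.05% (0.844 to 11.4), 6.83% and 0.863%. For these 2 genes the reading thus depended on the class taken for comparison. Clec1b was in 12.2% of the NCD macrophages (5.71 to 21.8), 8.03% of B cells and 2.82% of T cells. Il18bp was in 24.3% (15.1 to 35.7), 10.8% and 4.86%, above T cells and, with overlapping intervals, above B cells.

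In the pool the macrophages were above both classes for each gene. Cd5l was in 27.1% of them, 6.67% of B cells and 4.55% of T cells, and Slc40a1 in 41.4%, 5.20% and 4.31%. Il18bp was in 32.3%, 1.87% and 2.16%, Clec1b in 28.6%, 0.933% and 1.03%, and Spic in 13.5%, 0.933% and 0.234%. B and T cells of the pool held less of the KC transcripts than those of the NCD library, the ratio in B cells being -1.85 for Cd5l and -2.26 for Slc40a1.

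The proportions of KC transcripts in the pool are given per Cd5l UMI. Marco was at 0 in the macrophages (0 beside 854 Cd5l UMIs), 0.142 in KCs, 0.0495 in B cells and 0.204 in T cells, and Folr2 at 0.0363, 0.341, 0.203 and 0.206. Il18bp was at 0.594, 0.304, 0.311 and 0.391, and Clec1b at 0.260, 0.136, 0.131 and 0.197. Slc40a1 (1.02, 0.614, 1.02 and 0.875) and Igf1 (0.794, 0.249, 0.707 and 1.01) lay near the values of B and T cells. The part of free RNA in these levels was not tested. Igf1, a growth factor, was itself higher in the pool cells, with 37 and 678 UMIs (2.54, 2.09 to 3.09) and a KC ratio of 0.16. The list is sensitive to which cells are counted. Without the cells that held genes of other cell types its median was 0.26 over 7 measured genes, with Cd5l at 1.84 and Il18bp at 1.01, and with the rule applied to thinned cells the median was 0.46.

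MHC class II presentation had a median below 0 in the macrophages and lymphocytes and above 0 in KCs and monocytes. Of 11 genes 9 were measured, 0 were at least 2-fold higher and 2 lower, with a median of -0.40, beside -0.37 in B cells, -0.42 in T cells, 0.59 in KCs, 0.36 in Ly6c2 monocytes and 0.78 in non-classical monocytes. The summed level of the type 2 dendritic cell list moved with it, and the part of dendritic transcripts was not tested. H2-Ab1, a beta chain of the MHC class II molecule, was at -1.03 (-1.07 to -0.98) and its partner H2-Aa at -0.59 (-0.64 to -0.54), with 12851 and 8517 CPM. H2-DMb2, a chain of the peptide exchanger, was at -1.65 (-2.24 to -1.07) with 52 and 51 UMIs. Cd74, the invariant chain, went the other way at 0.27 (0.23 to 0.31). H2-Ab1 was also lower in B cells of the pool (-0.96) and in T cells (-1.29), and so was H2-Aa (-0.68 and -0.91), whereas in KCs H2-Ab1 was at 0.27 and H2-Aa at 0.59. Even so the pool macrophages held more H2-Aa than the pool's KCs (5225 CPM).

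The core of macrophage genes differed little between the libraries. All 18 genes were measured, 0 passed 2-fold in either direction and the median was 0.17, the ends being Mpeg1, a pore-forming protein, at 0.80 and the transcription factor Maf at -0.73. Over the alternatives its median lay between -0.016 and 0.26. Of 6 measured Fc receptors 0 passed 2-fold (median -0.15). Of 8 complement genes 1 was lower, C5ar1, the receptor of the anaphylatoxin C5a, at -1.27 (-1.62 to -0.91), and the median was -0.21. C5ar1 was also lower in KCs (-1.57), B cells (-2.87) and T cells (-3.02). In the phagocytosis and efferocytosis list (17 of 20 measured, median 0.29) Lrp1 and Anxa1 (1.40, with 49.5% of its pool UMIs in 1 cell) were higher and Stab1 was lower at -1.01 (-1.37 to -0.63), beside -0.82 in KCs and -1.48 in B cells. By mean CPM 14 genes of that list were measured, with 1 higher and 1 lower.

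Chemokine ligands were mixed, with 4 of 10 measured genes higher, 1 lower and a median of 0.42. Only 3 of the 10 would have passed on NCD UMIs alone. By mean CPM 10 were measured, with 3 higher, 2 lower and a median of 0.16. Ccl3 and Ccl4, which attract leukocytes, were at 1.16 (0.86 to 1.51) and 1.62 (1.18 to 2.16), and both were higher as well in KCs (1.42 and 2.503), Ly6c2 monocytes (1.54 and 3.33) and T cells (3.94 and 3.82). Cxcl9 and Cxcl10, both ligands of Cxcr3, pointed in opposite directions. Cxcl9 was at -1.51 (-1.77 to -1.23), with 13 NCD cells and 25 pool cells holding it, and Cxcl10 at 1.77 (0.99 to 2.92), with 1 cell holding 53.6% of its pool UMIs. Over the alternatives Cxcl9 lay between -3.67 and -0.69. Of 9 measured interferon-stimulated genes, Cxcl10 was higher, Bst2 (-1.18) and Cxcl9 were lower, and the median was -0.26. By mean CPM 8 of them were measured, with 0 higher and 2 lower. Bst2 was lower in Ly6c2 monocytes (-1.08), B cells (-1.35) and T cells (-1.03) too. Il1rn, the antagonist of the interleukin-1 receptor, was the gene past 2-fold among 8 of the interleukin-1, TNF and inflammasome list, at 1.56 (0.90 to 2.49), beside 2.71 in KCs. On NCD UMIs alone 1 of these 8 would have passed, and by mean CPM 5 were measured and 0 were higher.

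Among matrix and growth factor genes (7 of 20 measured, median 0.95), Igf1, Fn1 and Tgfb1 were higher and Pdgfb was lower at -1.32 (-1.87 to -0.76). Only 1 of the 7 would have passed on NCD UMIs alone, and by mean CPM 2 of 5 were higher and 0 lower. Fn1, fibronectin, had 9 and 260 UMIs (3.08, 2.28 to 4.37), but it was found in 4 and 17 cells and 1 pool cell held 40.4% of its UMIs. In KCs Fn1 was at -2.60. Tgfb1 was also higher in KCs (1.02) and Ly6c2 monocytes (1.48). Of 17 measured transcription factors, Nr1h3, Klf4 (1.49) and Spic were higher, and Irf8 (-1.06) and Cebpb (-1.03) were lower, with a median of 0.01. On NCD UMIs alone 8 of the 17 would have passed. By mean CPM 12 were measured, with 1 higher, 2 lower and a median of -0.13. Klf4 was higher in KCs (1.61), Ly6c2 monocytes (1.20), B cells (1.28) and T cells (1.59) too, and Cebpb was lower in each of them (-1.76, -1.48, -2.20 and -1.70). Irf8 was at -0.42 in KCs, -0.10 in Ly6c2 monocytes, -0.79 in B cells and -1.19 in T cells. Lyz1, a lysozyme, was among the 12 highest genes at 2.98, yet 45.3% of its pool UMIs lay in 1 cell, and it was at -2.11 in KCs.

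Of the genes of glucose metabolism and cell death, which the study asks about, few differed by 2-fold between the libraries in these cells. The study's comparison was another, as it reports glucose metabolism pathways as more active in KCs than in MoMFs. Over the KCs of the same library, glycolysis genes of these cells had medians of 0.56 in the NCD library (16 measured) and 0.08 in the pool (15 measured). All genes tested had medians of 0.12 and 0.07 there. Between the libraries 10 of 19 glycolysis genes were measured, 0 passed 2-fold in either direction and the median was -0.21, beside 0.46 over 16 measured genes in KCs. Eno1 (enolase) was at 0.83 (0.36 to 1.39) and Hk2 (hexokinase) at -0.61 (-1.16 to 0.00). Over the alternatives the median of the list lay between -0.30 and 0.08, so that its sign was not fixed. None of the 7 glucose transporter genes was measured, their summed level being 66.4 and 33.2 CPM. Of 17 measured genes of oxidative phosphorylation 1 was higher, Sdhc (1.20, and 1.11 in Ly6c2 monocytes), with a median of 0.12. On NCD UMIs alone 3 of the 17 would have passed, and by mean CPM 0 of 14 were higher. Of 8 measured apoptosis genes 1 was higher, Pmaip1 (Noxa, which opposes Mcl1), at 1.94 (1.22 to 2.97), beside 2.09 in Ly6c2 monocytes and 2.46 in T cells, with a median of -0.14, and 0 of 4 apoptosis inhibitors passed 2-fold. On NCD UMIs alone 0 of the 8 apoptosis genes would have passed, and by mean CPM 4 were measured and 0 were higher. Chil1, the mouse gene of Chi3l1, gave 1 UMI in the NCD cells and 0 in the pool cells, so its level was not detectable at this depth and says nothing on genotype.

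Immediate-early genes, which respond within minutes to signals and to handling of tissue, were higher in the pool in every class compared. In the macrophages 9 of 17 measured genes were at least 2-fold higher, 0 lower, with a median of 1.43 (7 of 15 and 0.90 by mean CPM, 0.49 in thinned macrophages and 0.76 without cells holding genes of other types), and the medians were 1.31 in KCs, 1.04 in Ly6c2 monocytes, 1.06 in B cells and 1.14 in T cells. Egr1 had 18 and 659 UMIs (3.49, 2.90 to 4.33), Fosb was at 2.54, Atf3 at 2.43 and Nr4a1 at 2.38. Heat shock genes had a median of 0.72, with 2 of 8 past 2-fold, Hspa1a (2.12) and Hspa1b (2.31), and Hspa1b was at 4.27 in B cells and 4.46 in T cells. Both lists therefore differed between the libraries in cells of other lineages too.

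The genes with the lowest ratios were of several kinds. Ccnd2, a cyclin that drives entry to the cycle, had 130 and 64 UMIs (-2.63, -3.10 to -2.20) and Ccnd1 134 and 108 (-1.93, -2.31 to -1.56), these being 2 of 3 measured cell cycle genes. Ccnd2 was at -1.70 in KCs and -0.55 in B cells, and Ccnd1 at -1.97 and -1.93. S100a11, a small calcium-binding protein, was at -2.47, but at -3.04 in KCs and -1.69 in B cells. Tsc22d3 (GILZ), induced by glucocorticoids, was at -2.42 and equally at -2.42 in KCs, with -1.92 in Ly6c2 monocytes and -1.51 in B cells. Naaa (-1.97) and Wdfy4 (-1.87) belong to the list of type 1 dendritic cell genes. Irf8, given above as lower, belongs to that list too. The lower sum of the list in the pool is thus partly that of Naaa, Wdfy4 and Irf8. Naaa and Wdfy4 were lower to a smaller degree in KCs (-0.56 and -0.81), Ly6c2 monocytes (-0.65 and -0.84), B cells (-0.82 and -1.08) and T cells (-0.95 and -1.73). Under the rule on thinned cells Naaa was at -0.76. H2-Q7, a class I molecule, was at -2.11 and the transcription factor Runx3 at -2.001, while Ly6c2 monocytes were near 0 (-0.04 and 0.20) and H2-Q7 was at -0.94 in KCs. Siglece, an inhibitory sialic acid receptor, was at -1.96 (KCs -0.96, Ly6c2 monocytes -1.07, B cells -3.43 and T cells -3.70), Igfbp4 at -2.27, BC037034 at -2.33 and Serpina1e, a hepatocyte antitrypsin, at -1.84. Igfbp4, BC037034 and Serpina1e were lower in the pool's KCs as well, at -1.92, -1.79 and -2.78, and BC037034 was at -2.33 in B cells and -2.15 in T cells.

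Cells of the pool were not uniform. At full depth Gpnmb was found in 65 of 134 cells and Cd5l in 57, 24 with both, 41 with Gpnmb alone, 33 with Cd5l alone and 36 with neither. In the NCD library these numbers were 6 and 12, with 1 cell holding both and 81 neither. Thinned to 2000 UMIs, Cd5l was in 15.9% of the pool cells with Gpnmb and 32.6% of those without, while Trem2 was in 54.5% and 25.8%. Other KC genes went with Cd5l, as Slc40a1 was found in 80.6% of cells with Cd5l and 26.8% of those without, Il18bp in 72.2% and 17.5%, Clec1b in 63.9% and 15.5%, and Igf1 in 69.4% and 30.9%. As a description over 133 cells of 1 library, Spearman's rho was 0.58 for Cd5l with Il18bp, 0.57 with Slc40a1, 0.33 for Gpnmb with Trem2 and -0.16 for Gpnmb with Cd5l. UMIs were sparse in single cells, and rho of H2-Aa with Cd74, both abundant, was 0.75.

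Some other lipid-associated genes were higher in pool cells with Gpnmb than in those without it. Of 18 measured, 6 were at least 2-fold higher and 0 lower, beside 0.674% and 2.18% of all 1929 genes, and the intervals of 5 (Plin2, Itgax, Gdf15, Tyrobp and Ctsl) included 0. Cells with Gpnmb were somewhat deeper (a median of 8013 UMIs against 7002). The log2 ratio between these cells was 2.95 for Fabp5, 1.91 for Cd63, 1.62 for Trem2, 1.57 for Ms4a7, 1.46 for Hmox1 (heme oxygenase), 1.23 for Cd9 and 1.09 for Ctsd, while Il1b, a pyrogenic cytokine, was at -2.004 and Plac8 at -2.06. The median over 18 lipid-associated genes was 0.71 and over 30 lysosomal genes 0.36, beside -0.01 over all genes. KC identity genes had a median of 0.07 in this split. The endothelial genes Aqp1 (-3.11), Kdr (-2.66) and Igfbp7 (-2.63) were lower in the cells with Gpnmb. For each of these genes 1 cell without Gpnmb held a large part of the pool's UMIs, 37.7%, 28.9% and 34.7%. Cells with Cd5l differed from those without it by another set, with Slc40a1 at 2.70, Il18bp at 2.68, Clec1b at 2.08 and Igf1 at 1.64, with 5 of 9 KC identity genes at least 2-fold higher beside 2.44% of all genes (1.61% lower), and with Ccr2 at -0.97, Itgax at -0.86, Gpnmb at -0.74 and Cd9 at -1.17. Endothelial genes moved with this split too, Ptprb at 2.13, Ehd3 at 1.67, Kdr at 1.62 and Igfbp7 at 1.51. For each of them 1 cell held 38.5% to 47.2% of the UMIs found in the cells with Cd5l. The part of these genes in the split was not tested. The lipid-associated list was level here (0.00 over 19 genes), and cells with Cd5l were deeper (a median of 9700 UMIs against 7002).

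**Figure D4:**
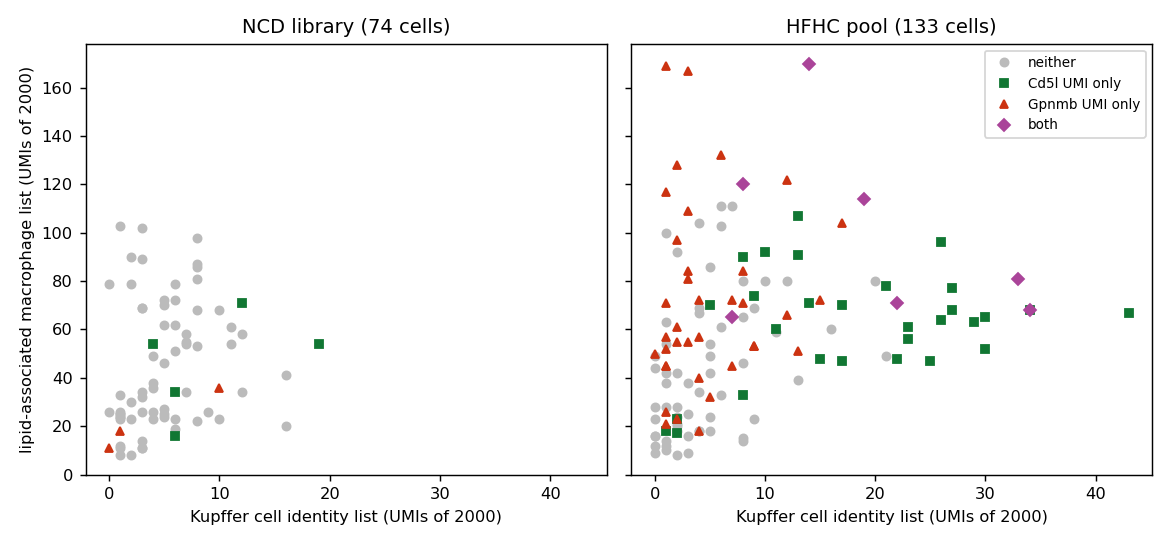
UMIs of the lipid-associated macrophage list (vertical axis) against UMIs of the KC identity list (horizontal axis) in each C1q-positive macrophage thinned to 2000 UMIs, for 74 NCD cells (left) and 133 HFHC pool cells (right), marked by whether the cell held a UMI of Cd5l, Gpnmb, both or neither. Cells above 20 UMIs of the KC list, which counts Cd5l itself, occur in the pool alone, and most of them hold Cd5l.

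As a description, the pool cells were also divided by the receptors, whose sum the rule had used, and nothing is supported by this division. The 50 cells with more Cx3cr1 than Ccr2 exceeded the 84 cells with more Ccr2 by 2.31 (log2) for Lilra5, an activating receptor of myeloid cells, by 1.87 for Stab1, 1.71 for the adhesion molecule Vcam1, 1.40 for Il18bp, 1.35 for Ms4a7, 1.13 for Cd5l and 1.09 for Apoe. In the other direction, genes that circulating monocytes also express were lower in the cells with more Cx3cr1, Plac8 at -3.66, S100a6 at -2.70, Lsp1 at -2.62, Fn1 at -2.46 and Ms4a4c at -2.15. The depth of both sets of cells was alike (7791 and 7789.5 UMIs). Endothelial genes moved with this split as well, Aqp1 at 2.03, Igfbp7 at 1.89, Ptprb at 1.86, Dnase1l3 at 1.63 and Kdr at 1.58. For each of them 1 cell held 41.9% to 53.3% of the UMIs found in the cells with more Cx3cr1. Stab1 is a gene of liver endothelium too. The part of endothelial genes in the split was not tested. Of all genes 1.92% were at least 2-fold higher and 2.18% lower, and of 10 KC identity genes 4 were higher. KC identity genes had a median of 0.74 in this split, lipid-associated genes 0.43 and MHC class II genes -0.13. In thinned cells the lipid-associated list took a median of 35 of 2000 UMIs in the NCD library (8 to 103) and 56 in the pool (8 to 170), the KC list 5 in both with a highest cell of 19 and 43, MHC class II 125 and 107, and the lysosome 54.5 and 68. The pool's excess of KC transcripts thus lay in a part of its cells.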

How the data were processed

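Liver NPCs were captured with the BD Rhapsody system and sequenced as whole-transcriptome libraries. Per the file headers, the authors made the UMI counts with the BD Rhapsody WTA Analysis Pipeline (1.10.1). Each value is a count of molecules per cell and gene after error correction, on build GRCm38, and was deposited unscaled. The submitters' processing notes also name Seurat. The labels list a further sample, a Tag library of the pool, which is not analysed here.

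Here, cells were chosen by the limits given in the report. Summed UMIs of a set of cells gave CPM. A ratio is the log2 of 2 such CPM after adding 1 UMI to each sum, for genes with 100 or more UMIs in the sets compared, with an exact 95% counting interval. Where depth mattered, cells were thinned to 2000 UMIs (seed 1). With 1 library per diet no test was made. The members, gene lists and marker lists were chosen with earlier results of these data known. Genes named are those of the rule, the given markers, the study's markers of monocytes, KCs and MoMFs, Chil1, the genes of each list past 2-fold or the 3 with the largest change, and the 12 highest and 12 lowest ratios of each comparison. Genes named beyond this, among them those given for the splits of pool cells and per Cd5l UMI, were picked with their values in view. A few genes that these rules would name are not reported here. The ratio step was tested on simulated data. Python 3.11.15, numpy 2.4.6, scipy 1.17.1, pandas 2.3.3, matplotlib 3.10.9 and scanpy 1.11.5 with scikit-image 0.26.0 (Scrublet) were used. Alternatives for the cell filter, the rule, doublets, weighting, thinning, scaling and gene filters are counted in the closing section, which lists values for some of them. Intervals cover counting error only.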

Additional observations from a re-analysis of the deposited data

How the results depend on the processing

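No paired analysis was possible because each diet has 1 library. Of 196 values of shares, counts and list medians under the alternatives, 165 moved by less than the set limits and 31 moved further, as did 240 and 31 of 271 ratios of single genes. No value past 2-fold changed sign, whereas the small medians of glycolysis (-0.30 to 0.08) and the macrophage core (-0.016 to 0.26) did. Cells without genes of other types, cells with a UMI of 5 macrophage genes, the leaving out of each gene's highest cell and a filter on mean CPM were chosen after seeing the data. With a mitochondrial limit of 10%, the lipid-associated median was 0.82 and the immediate-early one 0.97. With a mean CPM of at least 100 in place of 100 UMIs, 84 genes were higher and 79 lower, and the immediate-early median was 0.90. Without an upper limit on genes, 233 genes were higher and the MHC class II median was -0.59. With at least 10 C1q UMIs, and with equal weight for each cell, the macrophage core medians were 0.020 and 0.022, and with a UMI of 5 macrophage genes required it was 0.064. With the rule on thinned cells, the shares were 0.890% (71 cells) and 1.29% (111 cells), and the lipid-associated, KC and MHC class II medians 0.72, 0.46 and -0.26. With thinned members, 36 genes were higher and 20 lower, and the medians were 0.53 (lipid-associated), -0.28 (MHC class II), 0.54 (lipid handling), 0.49 (immediate-early) and -0.016 (core). With a minimum of 20 UMIs, 560 genes were higher and 527 lower, and the immediate-early median was 0.90. Without cells holding genes of other types, the shares were 0.287% and 0.331%, 77 genes were higher and 45 lower, and the KC, immediate-early and core medians were 0.26, 0.76 and -0.013. The thinned settings test fewer genes and cells. The cause of the other shifts was not tested. No setting separates diet from library, and for some genes counts near 10 UMIs in the 98 NCD cells limit the ratio.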
